A study of Mus musculus with 14 samples.

Results

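The multicopy gene families of the 2-cell embryo were followed through mouse embryos that had been given or denied lactate around major zygotic genome activation (ZGA). Members were taken by symbol alone: the numbered Eif1ad genes, Usp17la to Usp17le, the Tcstv genes, the numbered Tdpoz genes, Zfp352 and Duxf3. The rule found 36 of the 56923 genes in the count table, namely 17 Eif1ad, 10 Tdpoz, 5 Usp17l and 2 Tcstv genes together with Zfp352 and Duxf3. RNA-seq counts were available for 14 libraries of 7 conditions, 2 libraries per condition and 5 pooled embryos per library, from ICR females crossed with ICR males. Pooling means that fewer transcribing embryos and less RNA per embryo cannot be told apart, and nothing states that the libraries of a condition came from separate cultures, so p-values measure the spread between these libraries, which may be technical.

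Every G&N group carried 5 μM Gne140, an inhibitor of the lactate dehydrogenases LDHA and LDHB, and 50 μM NMN, a precursor of NAD+, from 24 h post-hCG. G&N medium held 10 mM lactate, and G&N-L medium held 0 mM. Embryos of both media were collected at the early 2-cell stage (30 h post-hCG) and at the late 2-cell stage (54 h). A further late 2-cell group, G&N-L + Lac-CoA, was kept without lactate and injected with 1 mM lactyl-CoA, the donor of the lactyl group for histone lactylation. The late 2-cell H3K18R group had received mRNAs of histone H3 with lysine 18 replaced, and the late 2-cell WT group mRNAs of wild-type H3, and both still had their own H3 genes. The H3K18R columns of the table bear the name of another substitution at this residue, and groups follow the titles of the libraries. At the early stage titles and treatment labels disagree: the libraries titled G&N-L are labelled with Gne140 and NMN and with no lack of lactate, as the late G&N libraries are, and those titled G&N with Gne140 alone. Whether the early groups differ in lactate therefore rests on their titles. The treatment label of the Lac-CoA libraries names only CoA.

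As background, the mouse genome is switched on in a minor wave that starts in the zygote and a major wave at the 2-cell stage. A transient set of transcripts marks the 2-cell embryo, many of them from clusters of young, nearly identical gene copies, and the same set flickers on in rare 2-cell-like cells of embryonic stem cell cultures. Duxf3 belongs to the Dux locus, whose double-homeobox protein activates many of these genes and the MERVL retrovirus. Eif1ad genes encode short proteins related to the translation initiation factor eIF1A, Tdpoz genes encode TRAF- and POZ-domain proteins, Usp17l genes encode deubiquitinating enzymes, Tcstv genes encode small 2-cell proteins linked to telomere lengthening, and Zfp352 encodes a zinc finger protein.

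In the mouse annotation on mm39, all members of a family lay on 1 chromosome. The Eif1ad genes filled chr12:87524918-88296452, the Tdpoz genes chr3:92976130-93979951, the Usp17l genes chr7:102898944-104511874 and the Tcstv genes chr13:120354924-120779798. Zfp352 lay at chr4:90107057-90113939 on the plus strand and Duxf3 at chr10:58066473-58068497 on the minus strand. The annotation called 34 members protein-coding and Eif1ad9 and Tdpoz6 unprocessed pseudogenes. The annotated spans of Eif1ad8 and Eif1ad12 overlapped on the same strand, where that of Eif1ad8 also overlapped processed pseudogenes. The span of Eif1ad3 overlapped Ubl5c, and that of Duxf3 a long noncoding RNA, on the opposite strand. Whether exons are shared was not checked, and strand handling is not given. Reads of a shared exonic stretch could not be told apart. Tcstv1 is called Tcstv1a in that annotation, and other Tcstv and Dux copies listed under older symbols were not taken by the rule.

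The 250 bases before the annotated start are shown for some of the members on which the results below turn, because copies that behaved alike or differently can then be read side by side. Letters are 5′ to 3′ on the gene's strand, and capitals mark TAATCC, the core bound by homeodomains of the Otx and Crx kind, and TATATA and TATAAA, which resemble the TATA box and can overlap, each searched on both strands.
Eif1ad7 (chr12:88241271-88241520, minus): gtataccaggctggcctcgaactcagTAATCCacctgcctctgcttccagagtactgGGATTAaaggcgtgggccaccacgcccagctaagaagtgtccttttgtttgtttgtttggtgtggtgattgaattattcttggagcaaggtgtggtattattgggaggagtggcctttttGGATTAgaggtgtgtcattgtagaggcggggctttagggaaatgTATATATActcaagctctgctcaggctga
Eif1ad15 (chr12:88290797-88291046, minus): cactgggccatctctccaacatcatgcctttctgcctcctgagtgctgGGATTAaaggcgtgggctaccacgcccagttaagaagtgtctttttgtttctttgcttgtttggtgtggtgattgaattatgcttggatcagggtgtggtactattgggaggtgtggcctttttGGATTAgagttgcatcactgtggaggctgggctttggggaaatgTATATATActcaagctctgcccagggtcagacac
Tdpoz1 (chr3:93583618-93583867, minus): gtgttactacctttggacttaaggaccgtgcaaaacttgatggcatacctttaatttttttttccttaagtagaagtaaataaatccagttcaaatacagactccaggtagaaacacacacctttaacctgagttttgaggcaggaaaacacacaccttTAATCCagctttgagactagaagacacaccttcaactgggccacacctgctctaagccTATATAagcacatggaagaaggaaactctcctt
Tdpoz9-ps1 (chr3:93850851-93851100, minus): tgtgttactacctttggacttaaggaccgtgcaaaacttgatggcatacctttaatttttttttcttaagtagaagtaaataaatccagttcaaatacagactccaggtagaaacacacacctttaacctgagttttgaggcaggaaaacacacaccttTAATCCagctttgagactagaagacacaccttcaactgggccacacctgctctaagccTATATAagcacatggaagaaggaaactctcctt
Usp17lb (chr7:104491811-104492060, minus): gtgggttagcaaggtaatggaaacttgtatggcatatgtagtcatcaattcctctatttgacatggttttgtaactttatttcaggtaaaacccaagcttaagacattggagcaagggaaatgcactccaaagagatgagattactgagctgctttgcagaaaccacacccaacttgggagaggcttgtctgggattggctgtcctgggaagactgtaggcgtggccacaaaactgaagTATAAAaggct
Usp17lc (chr7:103064029-103064278, plus): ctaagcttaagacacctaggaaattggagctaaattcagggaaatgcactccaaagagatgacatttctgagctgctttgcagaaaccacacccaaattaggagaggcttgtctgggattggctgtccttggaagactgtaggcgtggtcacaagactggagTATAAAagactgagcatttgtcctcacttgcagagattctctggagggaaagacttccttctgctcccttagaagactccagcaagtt
Zfp352 (chr4:90106807-90107056, plus): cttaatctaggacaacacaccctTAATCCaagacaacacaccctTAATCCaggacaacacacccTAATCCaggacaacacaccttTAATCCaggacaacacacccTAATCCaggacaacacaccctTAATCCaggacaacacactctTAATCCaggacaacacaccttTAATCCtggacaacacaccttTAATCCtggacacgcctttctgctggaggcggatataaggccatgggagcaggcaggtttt

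TAATCC occurred before 21 of the 36 members (58.3%) and before 8.24% of all 78287 annotated genes. Among them were 14 of 17 Eif1ad and 4 of 10 Tdpoz promoters and no Usp17l promoter. Among the 14 Eif1ad promoters with a match, the nearest began 72 to 78 bases before the start. The Zfp352 promoter held 9 copies at a spacing of 20 or 21 bases, the outermost 227 and the innermost 61 bases before the start, in a tandem repeat that filled most of the window. TATATA was found before 20 members (55.6%) and before 7.7% of all genes. It began 26 to 32 bases before the start in the same 14 Eif1ad genes and 29 to 33 bases before it in 4 Tdpoz genes. TATAAA was found in 4 of 5 Usp17l promoters and in no other member, against 15.4% of all genes. GATTNAATC, letters from the core of the Dux site that can overlap TAATCC, was found on either strand before 1 of the 36 members (2.78%) and before 0.413% of all genes. A missing match says only that these letters were not in this window. Windows follow the annotated starts, and annotated exon numbers differ between copies, such as 1 or 2 among the Tdpoz genes. Members are copies of each other, so these counts are not independent. TATATA and TAATCC were chosen after these promoters were read, so their shares beside those of all genes are a description and no test of enrichment. Between copies, promoter identity ranged from 42.8% to 98.8% in the Eif1ad family (median 67.2%) and from 40.4% to 100% in the Tdpoz family (median 44.8%), where Tdpoz9 and Tdpoz9-ps1 were identical.

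Near-identity also limits what a count of 1 copy means. Every 100-base window of the members' exons was looked up in the whole genome on both strands. Of the windows of Zfp352, 99.3% occurred once, and of those of Duxf3, 49.8%. The share ranged from 6.23% (Eif1ad6) to 97.9% (Eif1ad9) in the Eif1ad family, from 0% (Tdpoz5 and Tdpoz7) to 88.4% (Tdpoz4 and Tdpoz8) in the Tdpoz family, from 61.5% to 93.5% in the Usp17l family, and was 74.5% for Tcstv1 and 92.3% for Tcstv3. It stood under 20% in 6 members: Eif1ad2, Eif1ad6, Tdpoz5, Tdpoz7, Tdpoz9 and Tdpoz9-ps1. Tdpoz5, with no single-copy window, still had up to 540 counts in a library, and Eif1ad6 up to 28610. How reads with several alignments were assigned, and the read length, are not given in the sources used here, so values of these 6 genes are uncertain and families were also summed.

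**Figure D1:**
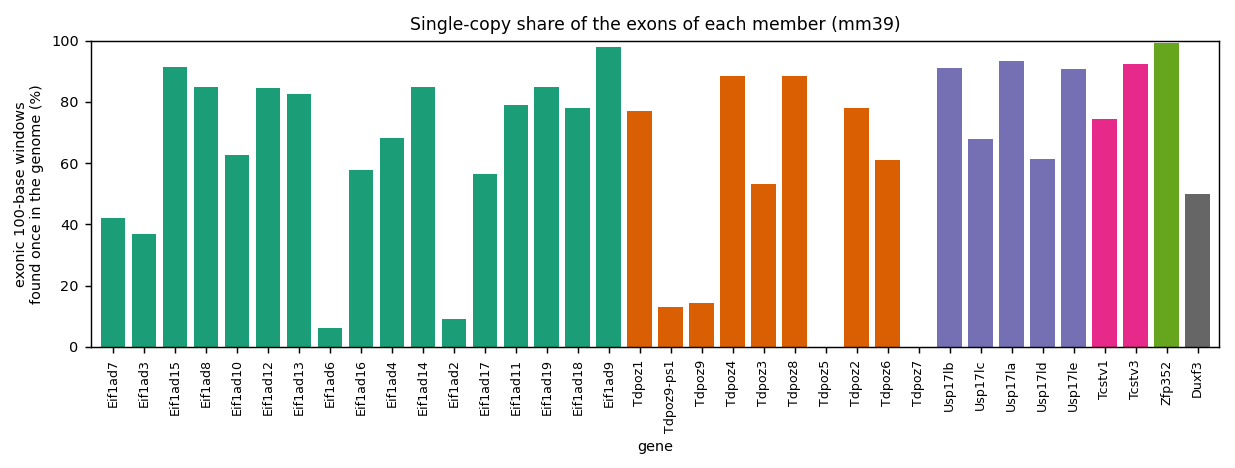
Share of exonic 100-base windows that occur once in mm39 (y axis, percent) for each of the 36 members (x axis), coloured by family. Zfp352 reached 99.3%, while 6 members stood under 20% and Tdpoz5 and Tdpoz7 at 0%.

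Libraries held 20350427 to 61275465 counts. Levels are given as CPM, counts per 1000000 counts of the library after its total was scaled by TMM, and where a pair of values stands for a group, they are those of replicates 1 and 2 in that order. Where a library had no count of a gene, its depth allowed a level of at most 0.059 to 0.144 CPM (3 counts), a limit that covers counting error only, since amplified reads are not independent molecules. The 10 markers of the 2-cell embryo, 7 of them members and 3 of them Zscan4 genes, summed to 97.9 to 191 CPM in early and 956 to 2959 CPM in late libraries. As most are members, this sum is no separate check of the stage. Tcstv3 alone had 109.6 and 85.0 CPM in early G&N-L and 118 and 160.3 CPM in early G&N libraries. In each early library 1 to 3 of the 10 were at 0. Cumulus and granulosa cell markers summed to 5.44 to 32.9 CPM over 15 genes, 8 to 13 of which were at 0 in each library. Oocyte and maternal markers, 12 genes, summed to 20722 to 27744 CPM in early libraries and 3651 to 19285 CPM in late ones.

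The change from the early to the late stage was compared first, to place the members in the course of activation. Most members were scarce early and higher late. Tcstv1 and Tcstv3 were abundant at both stages. AF067061, a Tcstv copy outside the rule, was scarce early, with 375 and 0 counts in G&N-L and 204 and 124 counts in G&N libraries. In late G&N libraries AF067061 had 8137 and 7945 counts. Tcstv1, Tdpoz7, Usp17la, Usp17le and Eif1ad9 did not pass the test in either medium, nor did Duxf3, which was tested only with lactate. With lactate, 28 of 36 members rose past an adjusted p of 0.05 in edgeR's quasi-likelihood test, where 8.18% of all genes tested did, and none fell. These were 16 of 17 Eif1ad, 8 of 10 Tdpoz and 3 of 5 Usp17l genes and Zfp352. Without lactate, 14 of 35 members tested rose, where 5.97% of all genes did, namely 7 Eif1ad, 4 Tdpoz, Usp17lc, Tcstv3 and Zfp352. Of these, 12 had also risen with lactate. The counts depended on single libraries: 13 and 17 members passed the threshold without late 2-cell G&N replicate 1 and replicate 2, 4 and 6 without late 2-cell G&N-L replicate 1 and replicate 2, and 27 and 26 without early 2-cell G&N-L replicate 1 and replicate 2.

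The Eif1ad family as a sum stood at 25.8 and 32.6 CPM in the early G&N libraries and 5431 and 5165 CPM in the late ones, a ratio of 181-fold. Of the unscaled counts of the late G&N libraries, 0.590% and 0.506% belonged to this family. The Tdpoz sum went from 1.12 and 1.46 CPM to 232 and 213 CPM, 173-fold. Usp17l genes summed to 25.2 and 26.8 CPM early and 456 and 601 CPM late, 20.3-fold. Zfp352 measured 8.08 and 8.01 CPM early and 511 and 571 CPM late, with a fitted log2 fold change of 5.99 ± 0.29 (SE) and an adjusted p of 0.00541. Early and late libraries did not overlap in any of these 4 values.

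Tcstv1 and Tcstv3 were already abundant at the early stage. Tcstv1 had 382 and 637 CPM in early G&N libraries and 413 and 318 CPM in late ones, overlapping ranges (log2 fold change -0.58 ± 0.38 (SE), adjusted p = 0.357). Tcstv3 had 118 and 160.3 CPM early and 246 and 231 CPM late with lactate (log2 fold change 0.68 ± 0.31 (SE), adjusted p = 0.186). Without lactate it had 109.6 and 85.0 CPM early and 327 and 367 CPM late, and rose by 1.78 on the log2 scale (adjusted p = 0.00898). In counts not divided by length, the pair made up 500.3 and 798 of the 561 and 867 CPM of all 36 members in early G&N replicates 1 and 2.

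Leading copies differed in how far they were already on. Eif1ad7 had 2.32 and 2.41 CPM in early G&N libraries and 1032 and 1160.5 CPM in late ones (log2 fold change 8.78 ± 0.34 (SE), adjusted p = 0.00541). Eif1ad15, the highest of its family per kilobase of exon at the early stage, had 8.95 and 22.3 CPM early and 912 and 744 CPM late. Tdpoz2, Tdpoz4 and Tdpoz7 were at 0 in all 4 early libraries. Against the limit that 3 counts per library allow, Tdpoz4 was at least 435-fold higher at the late stage with lactate and at least 171-fold higher without it. Tdpoz9-ps1, the Tdpoz gene of smallest p with lactate, went from 0 and 1 counts to 1668 and 1339 counts (adjusted p = 0.00623), and Tdpoz3, that of smallest p without lactate, from 0 and 0 counts to 945 and 693 counts (adjusted p = 0.00937). Eif1ad17 had the smallest p of its family without lactate, at 0.655 and 0.907 CPM early and 65.1 and 103 CPM late (log2 fold change 6.70 ± 0.44 (SE), adjusted p = 0.00489). Usp17lb rose with lactate by 5.04 on the log2 scale (adjusted p = 0.00709) and Usp17lc without it by 4.64 (adjusted p = 0.0126). Usp17la, whose early libraries spread widely (0.412 and 11.5 CPM with lactate, 9.45 and 0.0453 CPM without it), and Usp17le did not pass in either comparison.

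**Figure D2:**
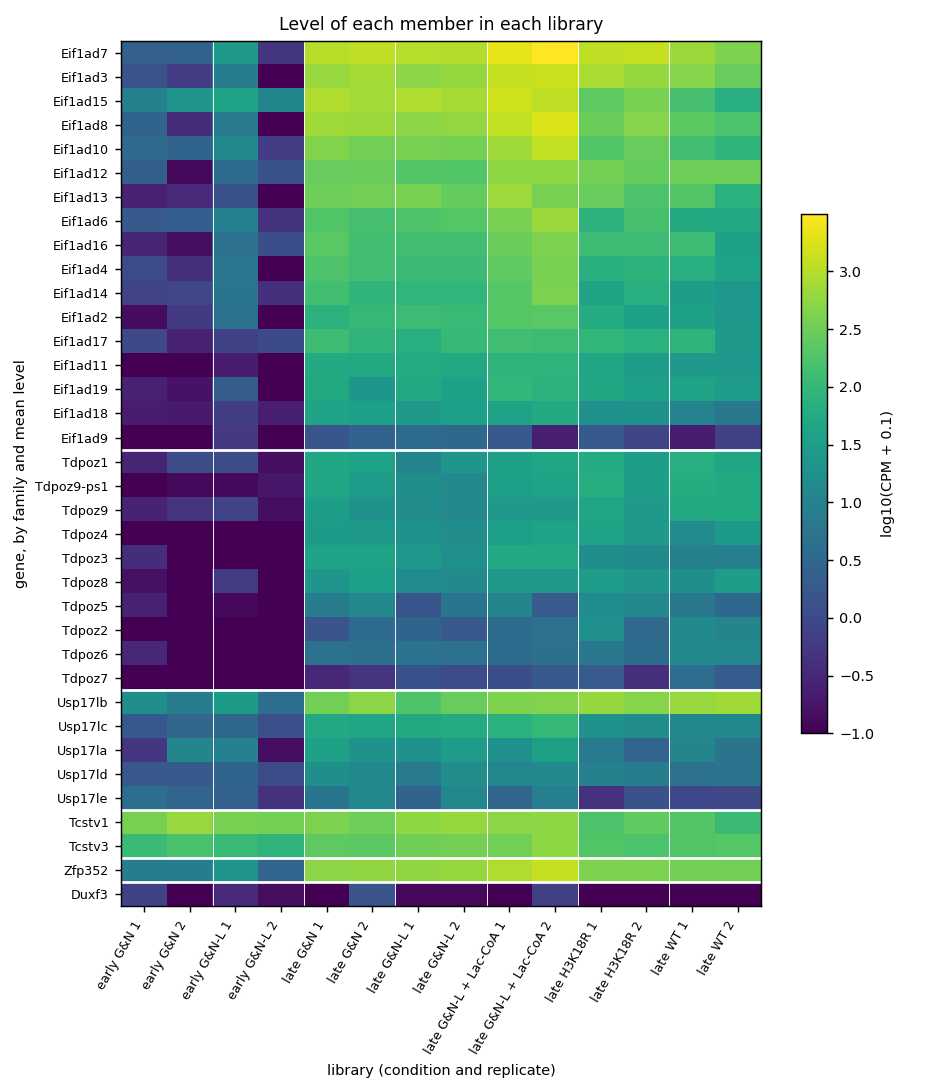
Level of each of the 36 members (rows, grouped by family and ordered by mean level) in each of the 14 libraries (columns), as log10(CPM + 0.1). Early libraries are dark except in the Tcstv rows, and Eif1ad7 reaches 2171 and 3152 CPM in the Lac-CoA libraries.

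Levels of single members were ranked per kilobase of exon. Averaged over the 10 late libraries, Eif1ad7 led with 708 CPM per kilobase, followed by Eif1ad3 with 423, Eif1ad15 with 369, Tcstv3 with 326, Eif1ad8 with 324, Zfp352 with 265, Tcstv1 with 263 and Usp17lb with 245. The order differed between groups. Eif1ad7 led in the means of the other 4 late groups, but in WT embryos Usp17lb led with 359 CPM per kilobase, ahead of Eif1ad7 with 298, and with Lac-CoA Usp17lb had 226 and Eif1ad7 1447. The leading Tdpoz genes by this measure, Tdpoz3 and Tdpoz4, had 24.8 and 24.7 CPM per kilobase, and Duxf3 had 0.1. Duxf3 was barely detected, with more than 3 counts in 4 of the 14 libraries: 10 in early G&N-L replicate 1, 32 in early G&N replicate 1, 26 in G&N-L + Lac-CoA replicate 2 and 60 in late G&N replicate 2. It passed the filter on low counts in 4 of the 8 comparisons and no test.

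The comparison of late 2-cell G&N-L with G&N embryos asks whether the members need lactate. Tdpoz1, Tdpoz3, Tdpoz9-ps1, Usp17lb and Eif1ad12 were lower without lactate and both Tcstv genes were higher, at a p below 0.05 before adjustment. Zfp352 and the other 16 Eif1ad genes did not reach it, and Duxf3 did not pass the filter on low counts. No member passed the adjusted p, where 0% of all 19481 genes tested did in edgeR (2332 at an unadjusted p under 0.05, 7 of them members). By a second, laxer criterion, which asks for a log2 difference of more than 0.5 either way at a p below 0.05 before adjustment, 5 of 35 members were lower, where 7.63% of all genes tested were, and 2 were higher, where 4.23% were. The median log2 fold change was -0.22 over the members tested and -0.02 over all genes. DESeq2 on the same genes passed 916 genes at an adjusted p of 0.05, of which 1 was a member, Tcstv1 (higher, adjusted p = 0.0315).

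Tdpoz1 had 49.9 and 41.1 CPM in the G&N libraries and 10.7 and 21.8 CPM in the G&N-L libraries. All of its G&N-L values lay below its G&N values, with a log2 fold change of -1.45 ± 0.43 (SE) (adjusted p = 0.333). Its near copy Tdpoz9-ps1, whose promoter is 99.2% identical, had 45.6 and 30.7 CPM with and 17.3 and 13.1 CPM without lactate (log2 fold change -1.29 ± 0.39 (SE), adjusted p = 0.333). Tdpoz9, of the same group of copies, had 31.3 and 19.6 CPM with and 15.9 and 13.1 CPM without lactate, with the same order of groups but short of the criterion (log2 fold change -0.77 ± 0.43 (SE), adjusted p = 0.607). Tdpoz3 was lower by the criterion, at 41.3 and 39.1 CPM with and 24.6 and 18.1 CPM without lactate (log2 fold change -0.86 ± 0.32 (SE), adjusted p = 0.378). Of 10 Tdpoz genes, 8 had a negative log2 fold change, with a family median of -0.82, and the exceptions Tdpoz6 and Tdpoz7 were among the least abundant. The family sum was 111 ± 3.32 CPM without lactate (SD, n = 2) and 223 ± 13.3 CPM with it (SD, n = 2), a ratio of 0.500. Without its member of most counts the log2 ratio of the sum was -0.90.

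In the Usp17l family the difference rested on a single gene. Usp17lb, which carries most of the family's counts, had 345 and 511 CPM with lactate and 181 and 287 CPM without it, without overlap (log2 fold change -0.82 ± 0.30 (SE), adjusted p = 0.365). Usp17lc had 51.3 and 43.6 CPM with and 53.5 and 58.4 CPM without lactate (log2 fold change 0.28 ± 0.26 (SE), adjusted p = 0.829). The family sum was 0.633 times the level with lactate, and without Usp17lb its log2 ratio went from -0.66 to -0.00347.

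Both Tcstv genes were higher without lactate by the criterion. Tcstv1 had 413 and 318 CPM in G&N and 548 and 605 CPM in G&N-L libraries, without overlap (log2 fold change 0.70 ± 0.22 (SE), adjusted p = 0.335). Tcstv3 had 246 and 231 CPM with and 327 and 367 CPM without lactate, also without overlap (log2 fold change 0.59 ± 0.19 (SE), adjusted p = 0.339). The oocyte and maternal markers summed to 13169.6 and 15143 CPM with and 16773 and 19285 CPM without lactate. By the criterion 2 of the 12 were higher and 0 lower without it (4.23% and 7.63% of all genes tested), and their part in the result was not tested.

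Eif1ad genes showed no common direction. Eif1ad12 passed the criterion, with 279.8 and 298 CPM in G&N and 198 and 189 CPM in G&N-L libraries and a log2 fold change of -0.53 ± 0.18 (SE) (adjusted p = 0.352). Eif1ad7 had 1032 and 1160.5 CPM in G&N and 997 and 969 CPM in G&N-L libraries (log2 fold change -0.11 ± 0.16 (SE), adjusted p = 0.923). Eif1ad3 had 640.5 and 789.6 CPM with and 530.2 and 624 CPM without lactate (log2 fold change -0.26 ± 0.19 (SE), adjusted p = 0.736). The ranges of Eif1ad15 overlapped, at 912 and 744 CPM with and 918 and 788 CPM without lactate. Of 17 genes, 10 were negative and 7 positive, with a median of -0.11. The family sum was 4741 ± 63.9 CPM without lactate (SD, n = 2) and 5298 ± 188 CPM with it (SD, n = 2). Zfp352 had 511 and 571 CPM with and 575 and 617 CPM without lactate (log2 fold change 0.19 ± 0.17 (SE), adjusted p = 0.809). These counts of calls moved with single libraries: 2 members passed the criterion without late 2-cell G&N-L replicate 1, 3 without its replicate 2 and 4 without late 2-cell G&N replicate 1, and 1 when all 14 libraries shared a fit.

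**Figure D3:**
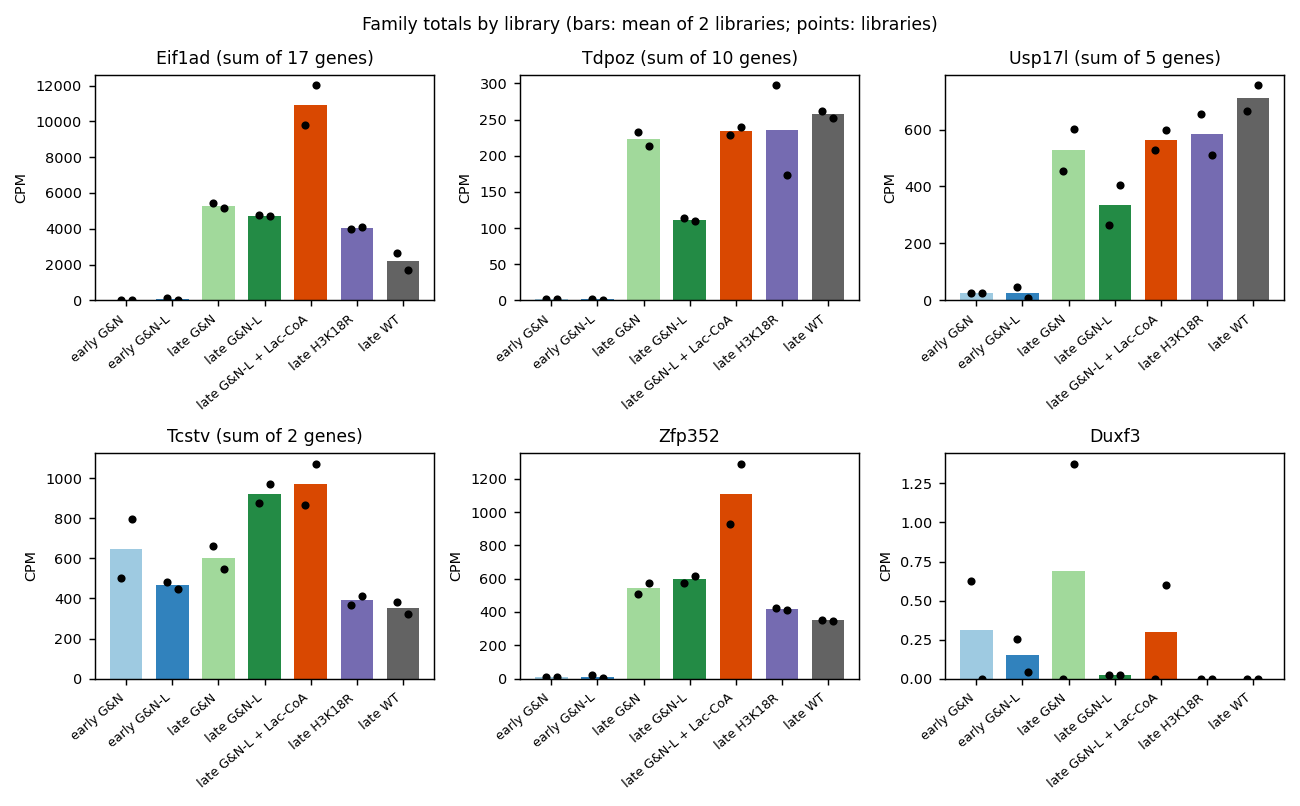
Summed CPM of each family (y axis, linear from 0) in the 7 conditions, with bars for the mean of 2 libraries and points for the libraries. The Lac-CoA libraries lie above all others for Eif1ad (9783 and 12022 CPM) and Zfp352. The late G&N-L libraries lie below all other late libraries for Tdpoz (114 and 109 CPM). Of the sums drawn, only that of Tcstv1 and Tcstv3 is high at the early stage.

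At the early 2-cell stage, the libraries titled G&N-L and G&N were compared 6 h after the change of medium, where most members had few counts and 24 of 36 passed the filter. By the criterion, 0 members were lower, where 2.69% of all genes tested were, and 1, Eif1ad16, was higher, where 1.82% were. No gene passed the adjusted p in edgeR (0% of 17343, with 784 at an unadjusted p under 0.05, 1 of them a member), and DESeq2 passed 37 genes. Eif1ad16 had 10 and 2 counts with lactate and 188 and 24 counts without it (log2 fold change 4.68 ± 1.45 (SE), adjusted p = 1). The members of smallest p in the other families were Tdpoz9, Usp17le and Tcstv3, with log2 fold changes of 0.44 ± 1.89 (SE), -1.21 ± 1.08 (SE) and -0.42 ± 0.28 (SE), each at an adjusted p of 1. All 13 Eif1ad genes tested had a positive log2 fold change, with a median of 1.56.

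This direction came from early 2-cell G&N-L replicate 1. Its Eif1ad sum was 134 CPM against 16.4 CPM in replicate 2 and 25.8 and 32.6 CPM in the G&N libraries, so the 2 groups overlapped. It had the highest level of the 4 early libraries for 16 of 17 Eif1ad genes and for 23 of all 36 members, Zfp352 included, at 21.8 and 2.86 CPM in replicates 1 and 2. Without that library the ratio of the Eif1ad sums changed from a log2 value of 1.36 to -0.84, and 2 members passed the criterion, both lower, whereas without replicate 2, 9 passed it, all higher. Without early 2-cell G&N replicate 1 and replicate 2, 4 and 0 members passed it. The Tcstv genes were the exception, since the G&N-L libraries were close, at 483 and 449 CPM, and both below the G&N libraries, at 500.3 and 798 CPM.

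Whether the effect of lactate removal differed between the stages was tested as an interaction over the 8 libraries. In edgeR 0% of 22287 genes passed the adjusted p (1683 at an unadjusted p under 0.05, 7 of them members), and DESeq2 passed 231 genes, of which 1, Eif1ad16, was a member. By the criterion 5 of 36 members had a lower interaction term, where 3.98% of all genes tested had, namely Eif1ad16, Eif1ad11, Eif1ad18, Tdpoz8 and Tdpoz9-ps1, and 2 had a higher one, where 3.57% had. These 2 were Tcstv1, with an interaction of 1.12 ± 0.44 (SE) on the log2 scale (adjusted p = 0.65), and Tcstv3, with 1.05 ± 0.36 (SE) (adjusted p = 0.65). The term was -4.96 ± 0.95 (SE) for Eif1ad16 (adjusted p = 0.494) and -3.32 ± 1.39 (SE) for Tdpoz9-ps1 (adjusted p = 0.65), while Usp17lb, with the smallest p of its family, had -1.24 (adjusted p = 0.818). Without early 2-cell G&N-L replicate 1 the count was 2 lower and 12 higher, without its replicate 2 it was 17 lower and 1 higher, and without late 2-cell G&N-L replicate 2 and late 2-cell G&N replicate 2 it was 3 and 4 in all.

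Lac-CoA was given to embryos without lactate, and the question was whether it restores what lactate removal lowers. Against G&N-L embryos, most Eif1ad genes, some Tdpoz genes, Usp17lb and Zfp352 were higher, and no Tcstv gene passed the criterion. By the criterion 19 of 35 members tested were higher, where 6.89% of all genes tested were, and 0 were lower, where 6.29% were. They were 13 of 17 Eif1ad, 4 of 10 Tdpoz and 1 of 5 Usp17l genes and Zfp352. The median log2 fold change was 0.84 over members tested and -0.01 over all genes, of which the latter became 0.10 on library totals. Under the adjusted p 0% of 19610 genes passed in edgeR (2609 at an unadjusted p under 0.05, 19 of them members). DESeq2 passed 1183 genes, and 14 of them were members, all higher: 10 Eif1ad genes, Tdpoz3, Tdpoz9-ps1, Usp17lb and Zfp352. With all 14 libraries in a fit, 3 members passed the criterion.

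Eif1ad12, with the smallest p, had 198 and 189 CPM in G&N-L libraries and 531 and 542 CPM with Lac-CoA (log2 fold change 1.42 ± 0.16 (SE), adjusted p = 0.294). Eif1ad7 had 997 and 969 CPM in G&N-L libraries and 2171 and 3152 CPM with Lac-CoA (log2 fold change 1.39 ± 0.21 (SE), adjusted p = 0.294), and Eif1ad3 had 530.2 and 624 CPM and, with Lac-CoA, 1257 and 1399 CPM (log2 fold change 1.15 ± 0.16 (SE), adjusted p = 0.294). In all 3 the Lac-CoA libraries lay above the G&N-L libraries. The family sum was 9783 and 12022 CPM with Lac-CoA, 2.30 times that of G&N-L embryos, and took 1.10% and 1.37% of all counts. Zfp352 had 929 and 1291 CPM with Lac-CoA and 575 and 617 CPM without (log2 fold change 0.85 ± 0.20 (SE), adjusted p = 0.294).

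For the Tdpoz genes and Usp17lb the values are given beside those of the late lactate comparison, which shares the G&N-L libraries. Tdpoz3 had 51.1 and 50.8 CPM with Lac-CoA against 24.6 and 18.1 CPM in G&N-L embryos (log2 fold change 1.21 ± 0.30 (SE), adjusted p = 0.294). With Lac-CoA, Tdpoz1 had 36.5 and 44.2 CPM (log2 fold change 1.27 ± 0.43 (SE), adjusted p = 0.31) and Tdpoz9-ps1 34.7 and 39.0 CPM (log2 fold change 1.22 ± 0.33 (SE), adjusted p = 0.301). The sum of the Tdpoz family was 2.10 times that of G&N-L embryos and 1.05 times that of G&N embryos. Usp17lb had 419.7 and 443 CPM with Lac-CoA (log2 fold change 0.83 ± 0.25 (SE) against G&N-L, adjusted p = 0.305, and 0.11 ± 0.24 (SE) against G&N, adjusted p = 1). The Tcstv genes had 866 and 1073 CPM in sum, 1.05 times the G&N-L level with overlapping libraries. Their smallest p was that of Tcstv3, with a log2 fold change of 0.30 ± 0.24 (SE) (adjusted p = 0.713).

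Against G&N embryos, which share the medium but hold lactate, most Eif1ad genes, both Tcstv genes, Usp17lc and Zfp352 were higher with Lac-CoA. By the criterion 17 of 36 members were higher, where 4.41% of all genes tested were, and 0 were lower, where 4.1% were. Of these, 13 were Eif1ad genes, and the others were Usp17lc, Tcstv1, Tcstv3 and Zfp352. This comparison shares its Lac-CoA libraries with the one before. In edgeR 0% of 19613 genes passed the adjusted p (1670 at an unadjusted p under 0.05, 17 of them members). DESeq2 passed 471 genes, and 12 of them were members, all higher. The criterion count was 8 without late 2-cell G&N replicate 2, and 1 with all 14 libraries in a fit.

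Eif1ad2 had the smallest p, with 77.2 and 97.7 CPM in G&N libraries and 204 and 219 CPM with Lac-CoA (log2 fold change 1.37 ± 0.23 (SE), adjusted p = 0.5). Only 9.12% of its exonic windows occur once, so its values are uncertain. Eif1ad7 was at 1032 and 1160.5 CPM in G&N libraries and 2171 and 3152 CPM with Lac-CoA (log2 fold change 1.37 ± 0.24 (SE), adjusted p = 0.5), and Eif1ad15 at 912 and 744 CPM and, with Lac-CoA, 1487 and 1157 CPM (log2 fold change 0.76 ± 0.24 (SE), adjusted p = 0.5). For these copies the Lac-CoA libraries did not overlap the G&N libraries. The sum of the Eif1ad family was 2.06 times that of G&N embryos. Zfp352 was 2.05 times as high (log2 fold change 1.13 ± 0.23 (SE), adjusted p = 0.5). Tcstv3 had 353 and 532 CPM with Lac-CoA against 246 and 231 CPM (log2 fold change 0.98 ± 0.27 (SE), adjusted p = 0.5), and Usp17lc 74.0 and 98.7 CPM against 51.3 and 43.6 CPM (log2 fold change 0.95 ± 0.29 (SE), adjusted p = 0.5). Tdpoz4 had the smallest p of its family, with a log2 fold change of 0.49 ± 0.30 (SE) (adjusted p = 0.832), and the median over the 10 Tdpoz genes was 0.09. Of 17 Eif1ad genes 16 were positive here, the pseudogene Eif1ad9 being the exception, at 75 and 6 counts with Lac-CoA and 55 and 108 counts in G&N libraries.

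Oocyte and maternal markers summed to 14164 and 9929.8 CPM with Lac-CoA, below the 16773 and 19285 CPM of the G&N-L libraries and overlapping the 13169.6 and 15143 CPM of the G&N libraries. By the criterion 3 of the 12 markers were lower than in G&N-L embryos (6.29% of all genes tested) and 2 lower than in G&N embryos (4.1%). None of the 12 was higher in either. Cumulus and granulosa markers summed to 7.27 and 14.1 CPM with Lac-CoA. The part of these in the result was not tested, and injection itself cannot be told apart from Lac-CoA, since neither reference is labelled as injected.

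**Figure D4:**
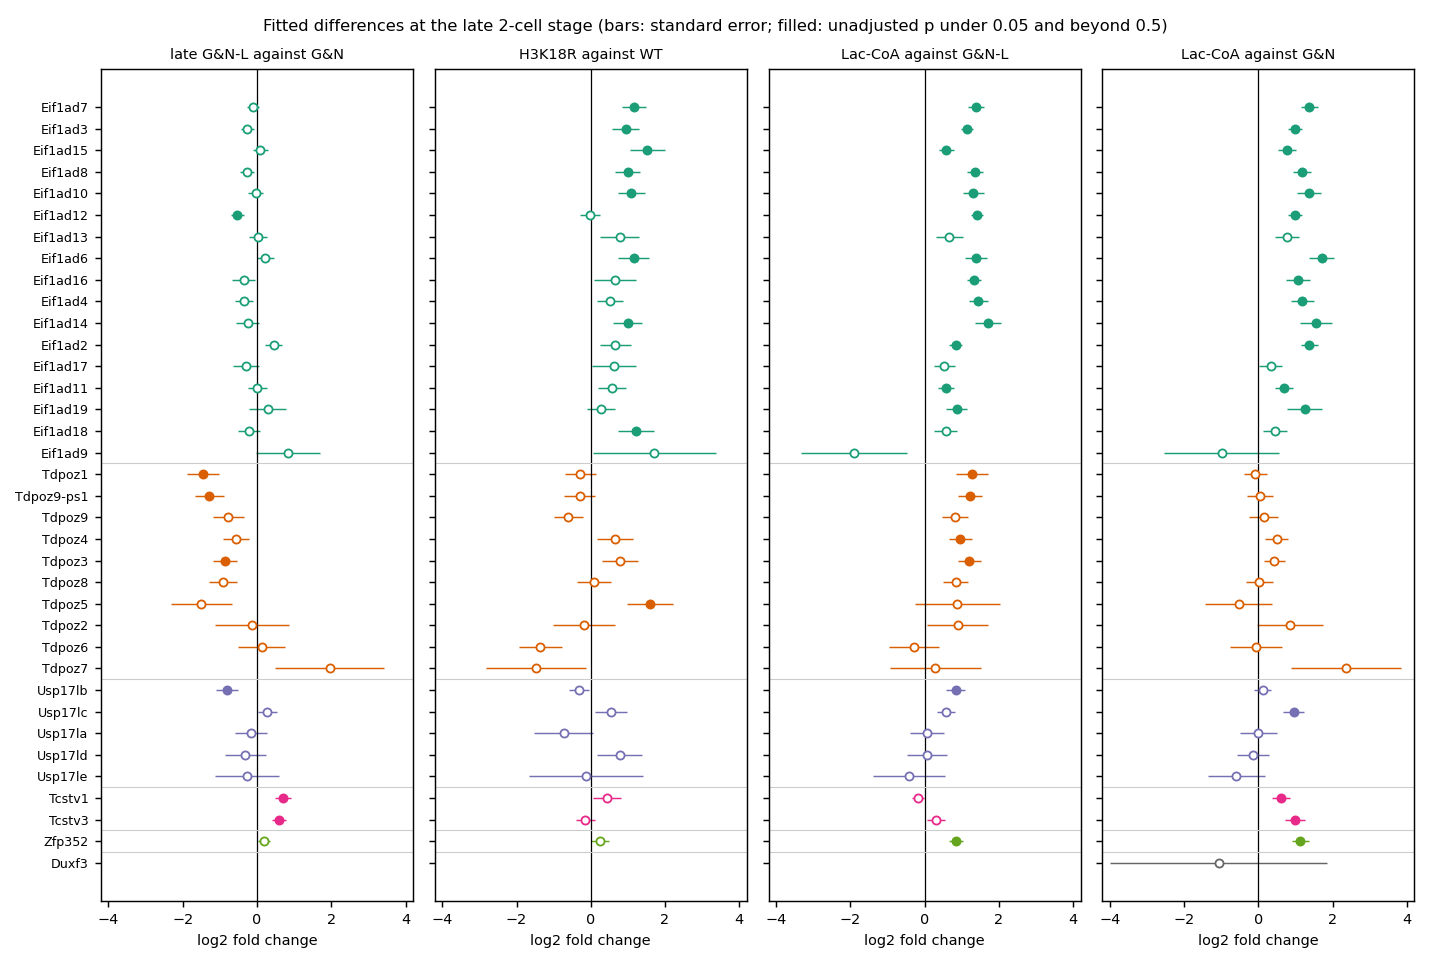
Fitted log2 fold change of each member (x axis) with its standard error in 4 comparisons of late 2-cell embryos, by family, where filled points passed the criterion (p below 0.05 before adjustment, log2 difference of more than 0.5 either way). With Lac-CoA 19 points are filled against G&N-L and 17 against G&N, all to the right of 0, whereas without lactate 5 lie to the left and 2 to the right.

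The H3K18R mutant was compared with wild-type H3 to ask whether replacing lysine 18, the residue whose lactylation was studied, affects the same genes as removing lactate. Of 17 Eif1ad genes 8 were higher in H3K18R than in WT embryos by the criterion, and no Usp17l or Tcstv gene passed it. By the criterion 9 of 35 members tested were higher, where 3.77% of all genes tested were, and 0 were lower, where 2.67% were. They were 8 Eif1ad genes (Eif1ad3, 6, 7, 8, 10, 14, 15 and 18) and Tdpoz5. Under the adjusted p 0.00565% of genes passed in edgeR (1 of 17704, not a member, and 1141 at an unadjusted p under 0.05, 9 of them members), and DESeq2 passed 118, of which 1, Eif1ad7, was a member (adjusted p = 0.0396).

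Eif1ad7 had 671 and 424 CPM in WT and 1179 and 1264 CPM in H3K18R libraries (log2 fold change 1.16 ± 0.32 (SE), adjusted p = 0.734). Eif1ad3 had 489 and 278 CPM in WT and 844 and 622 CPM in H3K18R libraries (log2 fold change 0.94 ± 0.37 (SE), adjusted p = 0.771), and Eif1ad15 had 149 and 67.3 CPM in WT and 237 and 386 CPM in H3K18R libraries (log2 fold change 1.53 ± 0.48 (SE), adjusted p = 0.734). For each of these copies both H3K18R libraries lay above both WT libraries, and WT replicate 2 was the lowest. The family sum was 2661 and 1683 CPM in WT and 3989.9 and 4107 CPM in H3K18R libraries, a ratio of 1.86. Of 17 Eif1ad genes 16 were positive, with a median of 0.94. The other, Eif1ad12, stood at 325 and 320.3 CPM in WT and 357 and 277 CPM in H3K18R libraries. The count moved with single libraries, and leaving 1 library in a group also weakens the test. Without WT replicate 2, 0 members passed the criterion while the ratio of the Eif1ad sums was 1.52, without H3K18R replicate 2 there were 3 at a ratio of 1.84, without H3K18R replicate 1 there were 4 lower and 6 higher, and with all 14 libraries in a fit there were 2.

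Tdpoz5 had 6.35 and 3.11 CPM in WT and 15.6 and 12.8 CPM in H3K18R libraries (log2 fold change 1.59 ± 0.62 (SE), adjusted p = 0.762), a gene with no single-copy window. The family sum was 262 and 252 CPM in WT and 297 and 173 CPM in H3K18R libraries, with overlapping ranges. In the Usp17l family Usp17ld had the smallest p (log2 fold change 0.78 ± 0.61 (SE), adjusted p = 0.905), and Usp17lb had 637 and 732 CPM in WT and 620.1 and 483 CPM in H3K18R libraries (log2 fold change -0.31 ± 0.27 (SE)). Tcstv1 had 197 and 116 CPM in WT and 175 and 247 CPM in H3K18R libraries (log2 fold change 0.44 ± 0.37 (SE), adjusted p = 0.919). Zfp352 had 352 and 348 CPM in WT and 424 and 413 CPM in H3K18R libraries, close within each group and without overlap, with a log2 fold change of 0.26 ± 0.24 (SE) (adjusted p = 0.931). Oocyte and maternal markers were at 3651 and 3724 CPM in WT and 4008 and 8259.8 CPM in H3K18R libraries, and cumulus and granulosa markers at 5.44 and 8.36 CPM in WT and 24.4 and 20.1 CPM in H3K18R libraries. The part of either in the result was not tested.

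The calls were also set against the promoters shown above, as a description with no test. TAATCC and TATATA stood together in 20 promoters, among them those of 14 Eif1ad genes, Tdpoz1, Tdpoz8, Tdpoz9 and Tdpoz9-ps1. In 15 promoters neither was found. The Tdpoz genes with both were annotated with 2 exons and those with neither with 1, so their windows may not lie at comparable starts. With Lac-CoA against G&N embryos, 13 of the 20 and 3 of the 15 were higher by the criterion (4.41% of all genes tested). Against G&N-L embryos it was 13 of 20 and 5 of the 14 tested (6.89% of all genes). In H3K18R against WT embryos these counts were 8 of 20 and 1 of 14 (3.77% of all genes). Most of the 20 are Eif1ad genes, so sequence and family were not separated. All 8 in H3K18R embryos were Eif1ad genes, and no Tdpoz gene passed with Lac-CoA against G&N embryos. Eif1ad2 and Eif1ad12 had neither sequence in their windows and passed the criterion with Lac-CoA against G&N embryos. Of the exonic windows of Eif1ad2, 9.12% occur once, so reads of other copies may be among its counts. Late lactate removal gave 2 lower and 2 higher members among the 20 and 3 lower and 0 higher among the 14. Of all genes tested, 7.63% were lower and 4.23% higher.

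Copies of a family did not keep fixed proportions across the late groups. WT and H3K18R embryos came from zygotes injected with H3 mRNA. The other groups came from the Gne140 and NMN cultures, and of these the Lac-CoA group was injected too. These levels are therefore given side by side with no test. Eif1ad15 had 149 and 67.3 CPM in WT, 237 and 386 CPM in H3K18R and 912 and 744 CPM in G&N libraries, whereas Eif1ad12 had 325 and 320.3 CPM, 357 and 277 CPM and 279.8 and 298 CPM in the same order of groups. Usp17lb had 637 and 732 CPM in WT against 345 and 511 CPM in G&N libraries, and Usp17lc went the other way, at 12.3 and 12.3 CPM in WT and 51.3 and 43.6 CPM in G&N libraries. Likewise Tdpoz9 had 54.7 and 54.8 CPM in WT and 31.3 and 19.6 CPM in G&N libraries, and Tdpoz3 had 9.30 and 8.17 CPM in WT and 41.3 and 39.1 CPM in G&N libraries. The sum of all 36 members took 0.448% and 0.341% of counts in WT, 0.588% and 0.604% in H3K18R, 0.791% and 0.696% in G&N, 0.728% and 0.73% in G&N-L and 1.39% and 1.74% in Lac-CoA libraries. On this measure the Lac-CoA libraries were the highest and the WT libraries the lowest of the late stage. Most of the sum was Eif1ad, at 10903 of 13780 CPM in the mean of the Lac-CoA libraries. Mean levels of Eif1ad, Tcstv and Zfp352 were lowest in WT among the late groups. The Usp17l sum (666 and 755 CPM) and the mean Tdpoz sum (257 CPM) were highest there.

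Other genes of the 2-cell program were counted for context, from a list of 27 symbols of which 23 were in the table and 22 were tested in each comparison. It held Zscan4d, a SCAN-domain zinc finger gene, Rfpl4b, a ret finger protein-like gene, and AF067061, a further Tcstv copy under an older symbol. Without lactate at the late stage, 4 of the 22 were lower and 2 higher by the criterion (7.63% and 4.23% of all genes tested). The list had a median log2 fold change of 0.26, beside -0.02 for all genes. With Lac-CoA, 7 were higher and 2 lower than in G&N-L embryos (6.89% and 6.29% of all genes). Relative to G&N embryos, 7 were higher and 0 lower with Lac-CoA (4.41% and 4.1% of all genes). In H3K18R embryos 1 was lower and 0 were higher (2.67% and 3.77% of all genes). From the early to the late stage, 12 rose past the adjusted p with lactate and 10 without it (8.18% and 5.97% of all genes).

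Known regulators of the program were counted in the same way. Of 5 activators tested (Dppa2, Dppa4, Nelfa, Trp53 and Smarca5), 2 were lower without lactate at the late stage by the criterion (7.63% of all genes tested). With Lac-CoA, 2 were higher than in G&N-L embryos (6.89% of all genes) and 1 was lower than in G&N embryos (4.1% of all genes). Their summed level was 703 and 904 CPM in G&N, 387 and 454 CPM in G&N-L and 588 and 581 CPM in Lac-CoA libraries. The sum of the activators was thus highest in the G&N libraries and lowest in the G&N-L libraries of these 3 groups, without overlap. Smarca5, Dppa4 and Dppa2 had the highest mean CPM of the activators, so the sum need not describe the others. The Eif1ad sum was highest with Lac-CoA, and a link between the activators and the Eif1ad genes was not tested. In WT libraries the activators summed to 1756 and 1677 CPM and in H3K18R libraries to 1663 and 901 CPM. Of 14 repressors, Trim28, Kdm1a and Setdb1 among them, 2 were lower and 2 higher without lactate (7.63% and 4.23% of all genes). With Lac-CoA, 1 was lower and 1 higher than in G&N-L embryos (6.29% and 6.89% of all genes). In H3K18R embryos no activator or repressor passed the criterion.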

How the data were processed

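Mouse 2-cell embryo RNA-seq was analysed in 14 libraries, 2 per condition; further replicates named in the methods are not analysed here. Per the sources used, the authors ran FastQC and Trim Galore on the reads, HISAT2 against mm39 and then featureCounts, and they deposited unnormalised counts of reads for every gene. Handling of multi-mapped reads, strand and annotation release are not given in the sources used here.

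The 4 libraries of a comparison (8 for the interaction) were fitted separately with edgeR 4.0.16 in R 4.3.3: default filter on low counts, TMM, quasi-likelihood test, two-sided, Benjamini-Hochberg over all genes tested. A second criterion was a log2 difference of more than 0.5 either way at a p below 0.05 before adjustment. Scripts were tested on simulated data. CPM used TMM sizes over 14 libraries. Alternatives were DESeq2 1.42.0, its size factors, library totals, no filter, a fit of all 14 libraries, a replicate block and each library left out. Replicates of a group differed by more than counting noise (chi-square per degree of freedom 51.9 to 216). Exons and promoters were read from the mm39 annotation, matched by identifier for 36 of 36 members.

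Named members were Zfp352, Duxf3, the 3 of highest mean CPM per family and the member of smallest p per family and comparison; genes past a criterion were added after their values were seen. Members, lists and most tests were chosen with earlier results of these data known, and TATATA and TAATCC after the promoters were read. Some promoter sequences are not reported here.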

Additional observations from a re-analysis of the deposited data

Results flagged for a closer look

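In 4 members and 1 family sum, every library without lactate lay on one side of the libraries with lactate at the late stage and on the other side at the early stage. The difference between the stages was tested only as the interaction of the report, where none passed the adjusted p. For Tcstv1 the log2 ratio of mean CPM was 0.66 late and -0.47 early, for Tcstv3 0.54 and -0.52, and for the Tcstv sum 0.61 and -0.48. For Tdpoz9-ps1 it was -1.33 late and 2.35 early (early counts were 1 and 2 without lactate, 0 and 1 with it), and for Eif1ad18 -0.26 late and 1.63 early. Groups of 2 libraries were too small for a check of single outlying samples.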

How the results depend on the processing

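Of the counts of members by the criterion (by the adjusted p for the stage changes), those with DESeq2 on the same genes, its size factors in edgeR, library totals, no filter and the replicate block stayed within 1.5 times the reported count, except as follows. At the early stage lactate removal gave 2 members with DESeq2 and 2 without the filter. The stage change without lactate gave 28 with DESeq2, 23 on library totals and 28 without the filter, and the interaction gave 20 without the filter. With all 14 libraries in a fit the counts were 1 for late and 11 for early lactate removal, 2 for H3K18R, 3 and 1 for Lac-CoA against G&N-L and G&N, and 31 for the stage change without lactate.

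Past the adjusted p, DESeq2 gave 1 member for late lactate removal, 1 for H3K18R, 14 and 12 for Lac-CoA against G&N-L and G&N and 1 for the interaction, and the fit without the filter gave 1 for early lactate removal, 1 for H3K18R and 10 for the interaction. Leaving out each library gave 2 to 5 members for late and 0 to 9 for early lactate removal, 0 to 10 for H3K18R, 14 to 17 and 8 to 16 for Lac-CoA against G&N-L and G&N, 13 to 27 and 4 to 27 for the stage changes with and without lactate, and 3 to 18 for the interaction by the criterion and 0 to 3 past the adjusted p. Leaving 1 library in a group assumes that it varies like the others. Shares of all genes in these fits are not given here, and whether the changes in count are particular to the members was not tested.

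With the replicate number as a block, 5 members passed the criterion for late lactate removal, 1 early, 6 for H3K18R, 19 and 15 for Lac-CoA, 5 for the interaction, and 25 and 15 the adjusted p for the stage changes. Deviations of same-numbered libraries correlated at -0.04 to 0.01. This gave no sign of pairing by number, but it cannot exclude a shared collection, since differences between single libraries may hide it. Leaving out each library moved the interaction of Tdpoz8 between -7.39 and 2.50, that of Eif1ad11 between -5.45 and 0.024 and the log2 ratio of the early Eif1ad sums between -0.84 and 2.19. The sign reversed in each without early 2-cell G&N-L replicate 1, and the cause was not tested. On library totals the median log2 fold change of all genes moved from 0.08 to 0.46 for the stage change with lactate and from 0.15 to 0.51 without it.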
